A study of Mus musculus with 4 samples.

Results

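Among the 32285 genes counted in single cells of MC38 tumors, 10 encode the constant regions of the T cell receptor chains or the CD3 complex, and they were taken by gene symbol. They are Trac, Trbc1, Trbc2, Trdc, Tcrg-C1 and Tcrg-C2 (receptor constants), Cd3d, Cd3e and Cd3g (CD3 chains) and Cd247 (the zeta chain). MC38 is a mouse colon adenocarcinoma line, grown here as tumors in C57BL/6 mice. Its cells carried wild-type RAC1 (WT) or the A159V substitution of this small GTPase, introduced into both copies of the endogenous gene by CRISPR-Cas9 knock-in, and the mice received anti-PD1, an antibody that blocks a checkpoint receptor on T cells, or an IgG isotype control. Both tumor genotypes were studied under both treatments with 1 library per group (4 in all), the study presents 1 A159V clone unless it says otherwise, and the mice behind a library are not given in the sources used here. Where 4 values follow each other below, they are WT with IgG, WT with anti-PD1, A159V with IgG and A159V with anti-PD1. CD45+ and CD45− cells of whole tumors were separated with beads and remixed, so the libraries do not hold cell types in their tumor proportions. The question was how the receptor and CD3 genes were used across CD8, CD4, gamma-delta and natural killer (NK) cells and between the groups. With 1 library per group there was no replicate and no test, and the 95% intervals (exact Poisson for levels, exact binomial for shares, delta-method for log2 ratios) cover counting error only.

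An alpha-beta T cell receptor pairs an alpha chain, whose constant region is encoded by Trac, with a beta chain that ends in either of the neighboring constant genes Trbc1 and Trbc2. A gamma-delta receptor pairs a delta chain (Trdc) with a gamma chain that uses Tcrg-C1, Tcrg-C2 or another gamma constant gene. Both receptors reach the surface and signal only together with CD3 gamma, delta and epsilon chains and zeta dimers, which carry the motifs phosphorylated by LCK. NK cells lack a rearranged receptor, but they use zeta chains with other activating receptors and are known to transcribe unrearranged receptor constant genes.

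The constant genes of a pair are close copies, which bears on every split between them. In the GENCODE M21 annotation of GRCm38, Trbc1 (ENSMUSG00000076490, chr6:41538218-41539881) and Trbc2 (ENSMUSG00000076498, chr6:41546730-41548352) lie 6.8 kb apart on the plus strand. Their coding exon 1 of 375 bases differed at 1 base and their coding exon 3 of 107 bases at 15, and 95.6% of 518 coding bases were identical. Shown first is a 61-base stretch of exon 1 around the single difference (chr6:41538447-41538507 for Trbc1, chr6:41546959-41547019 for Trbc2), where that base alone tells the genes apart. Shown next is exon 3 (chr6:41539229-41539335 and chr6:41547772-41547878), where they can. Capitals mark the bases that differ.
Trbc1 exon 1: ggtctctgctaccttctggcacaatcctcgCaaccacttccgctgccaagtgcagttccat
Trbc2 exon 1: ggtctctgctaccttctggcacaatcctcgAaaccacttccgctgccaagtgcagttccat
Trbc1 exon 3: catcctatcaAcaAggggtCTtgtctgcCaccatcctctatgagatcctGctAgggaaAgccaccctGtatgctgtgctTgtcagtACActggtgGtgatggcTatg
Trbc2 exon 3: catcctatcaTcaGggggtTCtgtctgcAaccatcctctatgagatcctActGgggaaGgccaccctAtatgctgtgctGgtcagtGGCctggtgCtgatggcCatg
The transcript ends after the coding part (219 bases in Trbc1 and 174 in Trbc2, stop codon included) shared no run longer than 8 bases. A 3′ library mostly tags transcript ends.

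The gamma constants were more alike at the 3′ end. Tcrg-C1 (ENSMUSG00000076749, chr13:19214103-19217024, plus strand) and Tcrg-C2 (ENSMUSG00000076752, chr13:19304649-19307551, minus strand) are 87.6 kb apart, and 97.2% of the 470 coding bases of their exons 1 and 3 were identical. Their coding exon 3 of 140 bases (chr13:19216476-19216615 and chr13:19305063-19305202) is printed because it shows how few bases separate them, again in capitals, on the strand of each gene.
Tcrg-C1 exon 3: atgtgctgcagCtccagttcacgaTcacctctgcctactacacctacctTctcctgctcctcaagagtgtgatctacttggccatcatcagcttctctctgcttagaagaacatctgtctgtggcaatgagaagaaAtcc
Tcrg-C2 exon 3: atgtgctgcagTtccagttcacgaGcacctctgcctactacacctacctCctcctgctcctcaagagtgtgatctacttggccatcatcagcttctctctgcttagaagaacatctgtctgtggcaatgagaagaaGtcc
Their longest shared run was 104 bases and lay in the 3′ end, so the split of UMIs (unique molecular identifiers, 1 per captured RNA molecule) between Tcrg-C1 and Tcrg-C2 is less certain than that between Trbc1 and Trbc2. Trac (ENSMUSG00000076928, chr14:54220521-54224206) and Trdc (ENSMUSG00000104876, chr14:54142851-54148868) lie 71.7 kb apart on the plus strand. The CD3 genes Cd3g (ENSMUSG00000002033, chr9:44969572-44980431), Cd3d (ENSMUSG00000032094, chr9:44981786-44987339) and Cd3e (ENSMUSG00000032093, chr9:44998740-45009627) form 1 cluster, whereas Cd247 (ENSMUSG00000005763, chr1:165788681-165877277) spans 88.6 kb against at most 10.9 kb for the other 9.

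The libraries held 7430 to 9311 cells and 54402632 to 125227747 UMIs, and 6466 to 8248 cells of each were analyzed, of which 1211, 1802, 1251 and 1513 were T or NK cells. Pairs of libraries shared 13 to 22 barcodes, at most 0.27% of a library. WT anti-PD1 stood apart. It held 29 cells of the unnamed clusters that best matched tumor markers against 2034 to 2803 in the other libraries, and 1609 stromal-like cells against 138 to 178. It also filled its own subclusters, since cluster 2 held 89.8% of its CD8 T-like cells and cluster 5 held 89.3% of its NK-like cells, whereas clusters 3 and 7 held most CD8 T-like cells and clusters 4, 10 and 11 most NK-like cells elsewhere.

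Cell classes were named from markers that included no receptor or CD3 gene, and the 272 receptor and member genes were kept out of the clustering, so the members' levels did not choose the cells. CD8 T-like cells (1200 in all) were cells of T-like or regulatory T-like clusters with a Cd8a or Cd8b1 UMI and no Cd4 UMI, and CD4 T-like cells (531) were the reverse. In the same clusters, 1044 cells had no Cd8 or Cd4 UMI and 37 had both kinds, and these are in neither class. The CD4 class mixed conventional and regulatory cells, with Foxp3, the transcription factor of regulatory T cells, detected in 36.0% of its cells. Most of its cells in every library lay in regulatory T-like clusters 1, 9 and 17. Cluster 1 held 49.3%, 7.69%, 54.5% and 51.1% of them, and cluster 9 held 53.8% in WT anti-PD1. Cluster 17 held 8.11%, 3.21%, 7.95% and 7.19%. Gamma-delta T-like cells (80) were 1 cluster led by Il23r, Cd163l1, Il1r1 and Zbtb16, with 5 to 44 cells per library, so they are described without comparison. NK-like cells numbered 1364, and 59.7% had a UMI of Ncr1, the NK receptor NKp46. A further 972 cells led by Klra6 scored highest for NK markers, but 18.7% had a Cd8a UMI and they were left unnamed (Klra6-led), by a rule chosen after the data were seen.

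Trac, the alpha constant, was far higher in T-like than in NK-like cells of every library. In sums over a class, more cells with a transcript and more transcript per cell cannot be told apart. In CD8 T-like cells it was at 633, 614, 684 and 570 UMIs per 1000000 UMIs of the class (CPM). CD4 T-like cells had 826, 754, 605 and 650 CPM, and NK-like cells had 19.0, 15.5, 10.3 and 11.9 CPM. No NK-like value came near a T-like value, and Klra6-led cells lay between CD8 and NK-like cells at 417, 284, 394 and 319 CPM. In macrophage-like cells, which should lack the receptor, Trac was at 1.80 to 2.93 CPM. Dendritic-like cells, which should also lack it, had 14.1 to 32.9 CPM, so the NK-like values overlapped those of cells without the receptor.

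The beta constants did not separate the classes in the same way. Trbc2 stood at 930, 606, 833 and 875 CPM in CD8 T-like cells, at 545, 435, 443 and 586 CPM in CD4 T-like cells and at 144, 83.3, 156 and 136 CPM in NK-like cells, so NK-like cells were the lowest in every library. Trbc1 was at 443, 307, 371 and 492 CPM in CD8 T-like cells and at 246, 137, 233 and 318 CPM in CD4 T-like cells. In NK-like cells Trbc1 was at 305 CPM (95% interval, 272 to 341), 318 (292 to 345), 269 (246 to 295) and 309 (281 to 340). These values were above those of CD4 T-like cells in 3 of 4 libraries, and in A159V anti-PD1 they were 309 against 318. In A159V IgG the CD4 T-like value rested on 39 UMIs, so 269 and 233 are not clearly apart. The level in macrophage-like cells was 0.398 to 1.80 CPM.

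**Figure D1:**
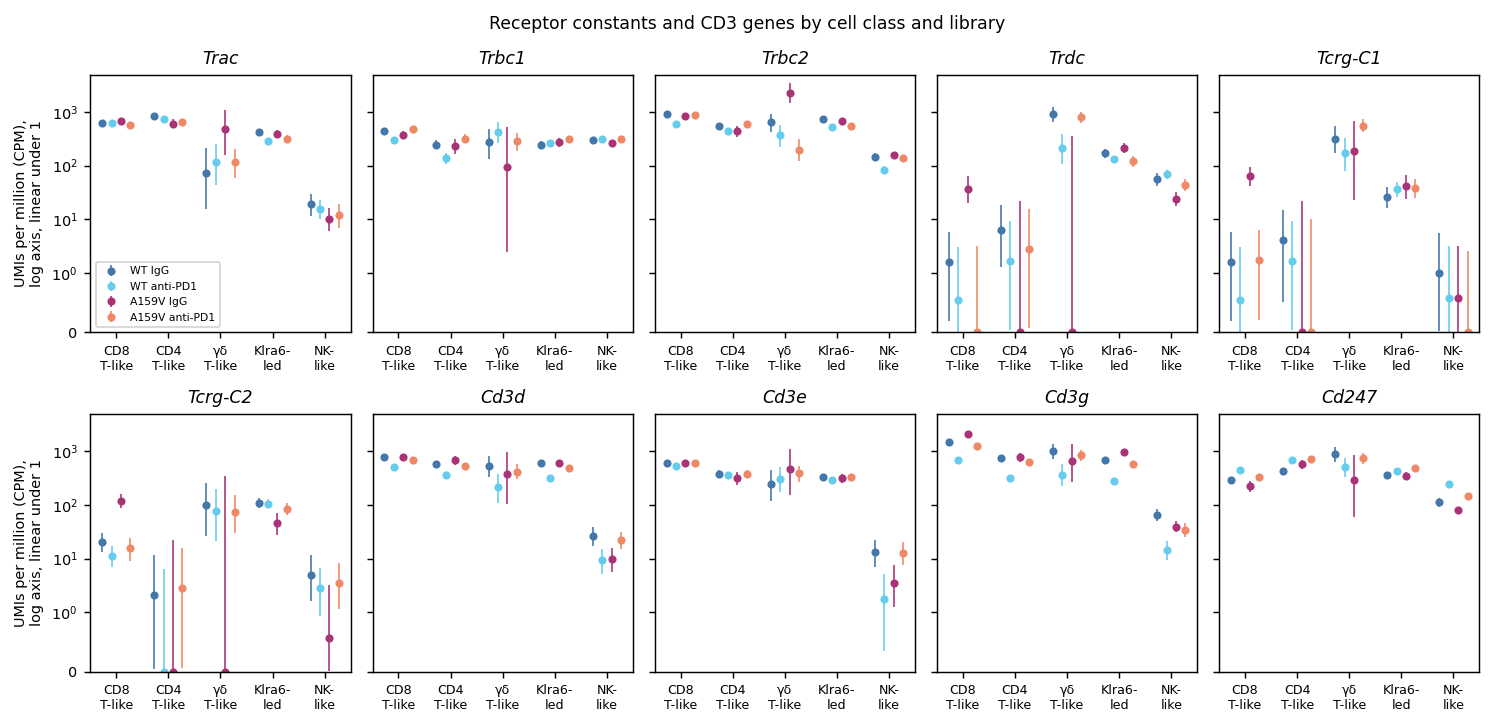
Levels of the 10 members in 5 cell classes, 1 point per library, in UMIs per 1000000 (CPM) of the class on a log axis that is linear under 1, with 95% Poisson intervals. Trac and the CD3 genes fall steeply in NK-like cells, Trbc1 stays at 269 to 318 CPM there, and Trdc and the gamma constants are high in gamma-delta T-like cells.

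The CD3 chains were T cell genes with little signal elsewhere. Cd3e (CD3 epsilon) was at 595, 525, 596 and 596 CPM in CD8 T-like cells, at 380, 367, 311 and 382 in CD4 T-like cells and at 13.0, 1.72, 3.43 and 12.6 in NK-like cells. Cd3d (CD3 delta) was at 779, 502, 777 and 686 CPM in CD8 T-like cells, at 578, 365, 677 and 534 in CD4 T-like cells and at 26.0, 9.19, 9.72 and 21.7 in NK-like cells. Cd3e in CD8 T-like cells kept to 525 to 596 CPM, while Cd3d was lowest in WT anti-PD1 in both T-like classes. Cd3g (CD3 gamma) was at 1496, 679, 2086 and 1266 CPM in CD8 T-like cells and at 747, 320, 772 and 620 CPM in CD4 T-like cells, lowest in WT anti-PD1 in each. In NK-like cells it was at 65.0, 14.4, 39.5 and 34.3 CPM, again lowest in WT anti-PD1. Dendritic-like cells had 10.4 to 18.8 CPM of Cd3e, 10.9 to 19.5 of Cd3d and 9.96 to 31.9 of Cd3g, which overlapped the NK-like values.

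Cd247, the zeta chain that carries most of the signaling motifs of the complex, had a larger share of the CD3 and zeta UMIs in NK-like than in T-like cells. It was at 287, 441, 222 and 337 CPM in CD8 T-like cells, at 434, 683, 569 and 711 CPM in CD4 T-like cells and at 113, 242, 78.9 and 148 CPM in NK-like cells. In all 3 classes the value was higher in the anti-PD1 library than in the IgG library of the same genotype, although the interval of the log2 ratio included 0 for CD4 T-like cells of A159V tumors. Of the UMIs of these 4 genes, Cd247 made up 13.1% (12.5 to 13.7) in CD8 T-like cells, 29.6% (28.1 to 31.2) in CD4 T-like cells and 72.3% (69.7 to 74.8) in NK-like cells, where the libraries gave 52.1%, 90.5%, 60.0% and 68.4%. Levels and shares were not divided by gene length and are compared between classes, not between genes.

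Per cell, depth limited detection, so each cell was thinned to 1000 UMIs before shares were taken. At that depth 85.0% (82.8 to 87.0) of CD8 T-like cells had a UMI of at least 1 of Cd3d, Cd3e and Cd3g, against 70.9% of CD4 T-like, 69.7% of gamma-delta T-like, 69.6% of Klra6-led and 2.89% (2.05 to 3.94) of NK-like cells. All 3 CD3 genes were seen together in 14.3% of 1158 CD8 T-like cells and in 0 of 1315 NK-like cells, which allows up to 0.228%. Cd247 without any CD3 gene was found in 16.5% of NK-like cells (14.5 to 18.6) and in 5.70% of CD8 T-like cells. Libraries differed in this, with 11.4%, 24.2%, 9.19% and 18.6% of NK-like cells and 2.77%, 9.52%, 3.31% and 2.99% of CD8 T-like cells, of which WT anti-PD1 held 46 of 66. In 10520 macrophage-like cells, the share with a Cd3g UMI was 0.181% and with a Cd247 UMI 0.181%, at median depths before thinning of 2653 UMIs there and 3164 in CD8 T-like cells. Without thinning, Cd3g was seen in 83.2% of CD8 T-like, 4.99% of NK-like and 0.38% of macrophage-like cells. In dendritic-like cells Cd3g was seen in 0.875% at 1000 UMIs and in 3.33% without thinning.

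Trdc, the delta constant, was highest in gamma-delta T-like cells, with 908, 214, 0 and 796 CPM from 37, 11, 0 and 76 UMIs, the 0 resting on 5 cells. Klra6-led cells had 170, 130, 214 and 121 CPM, and NK-like cells 56.0, 68.9, 24.0 and 44.1 CPM. In CD4 T-like cells Trdc gave 5 UMIs over all 4 libraries (3.13 CPM). Tcrg-C1, the gamma constant of several receptor types, was at 319, 175, 191 and 555 CPM in gamma-delta T-like cells, at 26.3 to 40.9 CPM in Klra6-led cells and at 3 UMIs in all NK-like cells. Tcrg-C2 was not higher there, with 98.2, 77.7, 0 and 73.3 CPM in gamma-delta T-like cells (15 UMIs in all) beside 108, 106, 45.7 and 83.9 CPM in Klra6-led cells. Of the UMIs of Tcrg-C1, Tcrg-C2 and Tcrg-C4, another gamma constant, Tcrg-C1 made up 65.8% (56.5 to 74.3) in gamma-delta T-like cells and 17.9% (14.8 to 21.3) in Klra6-led cells, with the reservation on shared sequence given above.

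The delta constant came with a gamma constant in gamma-delta T-like cells but rarely in NK-like cells. Among cells with Trdc and no alpha-beta constant UMI, at full depth, 4 of 13 gamma-delta T-like cells and 7 of 28 Klra6-led cells had no Tcrg-C1, Tcrg-C2 or Tcrg-C4 UMI, against 46 of 51 NK-like cells. The delta variable genes also differed. Gamma-delta T-like cells had 50 Trdv4 UMIs of 51 from 6 delta variable genes, and NK-like cells had 273 such UMIs, of which 195 were Trdv4 and 77 Trdv2-2, in every library. NK-like cells had few UMIs of the other variable families, with 16 for the 128 Trav genes, 15 for the 35 Trbv genes and 10 for the 7 gamma variable genes, whereas the 1200 CD8 T-like cells had 165, 215 and 99.

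The balance of Trbc1 and Trbc2 was opposite in NK-like and T-like cells. Of all Trbc1 and Trbc2 UMIs of NK-like cells, Trbc1 made up 67.9% (63.4 to 72.2), 79.2% (76.0 to 82.2), 63.4% (59.8 to 66.9) and 69.4% (65.6 to 72.9) in the 4 libraries. In CD8 T-like cells the shares were 32.3%, 33.6%, 30.8% and 36.0%, and in CD4 T-like cells 31.1%, 24.0%, 34.5% and 35.2%. The 4 NK-like values lay above all 8 CD8 and CD4 T-like values, whose highest upper bound was 44.0%. Cells of T-like clusters without a Cd8 or Cd4 UMI had 27.9%, 40.6%, 29.1% and 42.8%, the last with an upper bound of 47.8%. Klra6-led cells had 25.2%, 33.4%, 28.4% and 36.8%, the last of them just above the highest value of CD8 and CD4 T-like cells. Among the NK-like clusters the share ran from 60.0% in cluster 4 to 90.1% in cluster 11 (226 cells, 112 of them from A159V IgG).

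The balance was as large in NK-like cells without other T cell UMIs. With every cell that had a Trac, Cd3d, Cd3e or Cd3g UMI left out, a restriction chosen after the values were seen, 1223 of 1364 NK-like cells remained, with a Trbc1 share of 71.5% (69.5 to 73.4) and a Trbc1 level of 299 CPM. With NK-like cells taken by marker score alone, which adds the Klra6-led cells, a cycling cluster and a cluster led by H2-Eb1, H2-Aa and other genes of antigen-presenting cells, the shares were 41.4%, 53.2%, 46.4% and 51.7%.

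**Figure D2:**
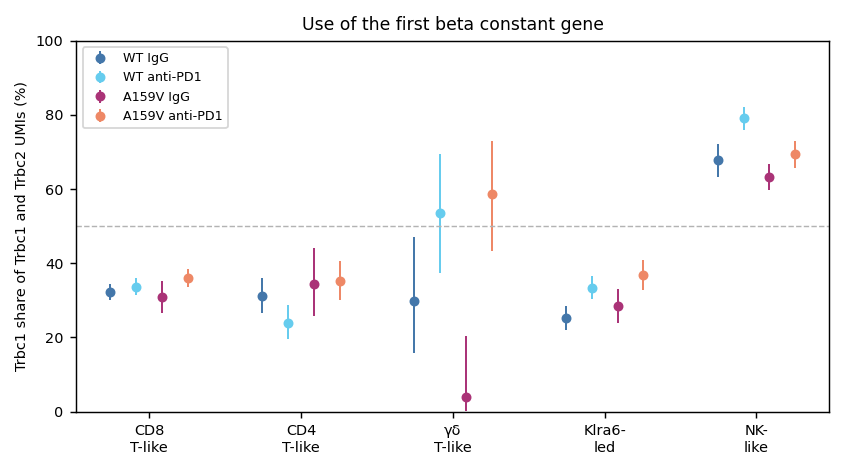
Share of Trbc1 among Trbc1 and Trbc2 UMIs (percent) in each cell class, 1 point per library with its 95% binomial interval, and a dashed line at an equal split. NK-like cells lie at 63.4% to 79.2% and CD8 T-like cells at 30.8% to 36.0%, and gamma-delta T-like points rest on 25 to 46 UMIs each.

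Among CD8 T-like and NK-like cells with at least 3 beta constant UMIs, those that gave a single beta gene outnumbered those that gave both. When 3 beta constant UMIs were drawn from each cell that had as many, 12.0% of 692 CD8 T-like cells gave only Trbc1, 46.2% only Trbc2 and 41.8% both. Of 341 NK-like cells, 45.2% gave only Trbc1, 12.3% only Trbc2 and 42.5% both. The share with both was therefore alike in value (intervals, 38.1 to 45.5 and 37.2 to 48.0), while the gene of the single-gene cells differed. In CD4 T-like cells both were given by 23 of 54, 18 of 50, 10 of 13 and 25 of 49 cells in the 4 libraries. The share with both that the balance of the genes alone would give was not calculated.

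Sorting each cell by its alpha-beta constants (Trac, Trbc1 or Trbc2) and Trdc gave, at 1000 UMIs, alpha-beta UMIs without Trdc in 79.0% (76.6 to 81.3) of 1158 CD8 T-like cells and 69.6% (65.4 to 73.5) of 506 CD4 T-like cells. Trdc without an alpha-beta UMI was found in 0 of these CD8 T-like cells, which allows up to 0.259%, and in 0 of the CD4 T-like cells. Both kinds together were seen in 0.518% and 0.198%. These 2 classes were thus nearly without delta transcripts, apart from CD8 T-like cells of A159V IgG. Of 76 gamma-delta T-like cells, 30.3% had only alpha-beta UMIs, 23.7% only Trdc and 13.2% both. In the WT anti-PD1 library, 8 of these 12 cells had only alpha-beta UMIs, so the cluster's name from its markers was not matched by Trdc in most of them. At full depth, 27 of all 80 cells had only alpha-beta UMIs, 13 only Trdc and 26 both. Such alpha-beta UMIs can be Trbc1 or Trbc2 without Trac, so they do not by themselves show an alpha-beta receptor.

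Klra6-led cells held alpha-beta UMIs alone in 59.0%, Trdc alone in 5.20% and both in 5.85% of 923 cells. NK-like cells held alpha-beta UMIs alone in 32.1% (29.6 to 34.7), Trdc alone in 3.12% (2.25 to 4.21) and both in 1.90% of 1315 cells. The alpha-beta UMIs of NK-like cells were almost all beta: 32.9% had a beta constant without Trac, 0.532% had both, and 0.608% had Trac alone, against 35.3%, 28.1% and 16.1% in CD8 T-like cells. In cells that should lack the receptor, alpha-beta UMIs were seen in 0.437% of 10520 macrophage-like cells and 0.577% of 2081 stromal-like cells, whose median depth before thinning was 13234 UMIs, and Trdc in 0.0190% and 0.144%. Without thinning, the shares with alpha-beta UMIs alone were 92.9% in CD8 T-like, 56.7% in NK-like, 1.23% in macrophage-like and 4.49% in stromal-like cells.

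**Figure D3:**
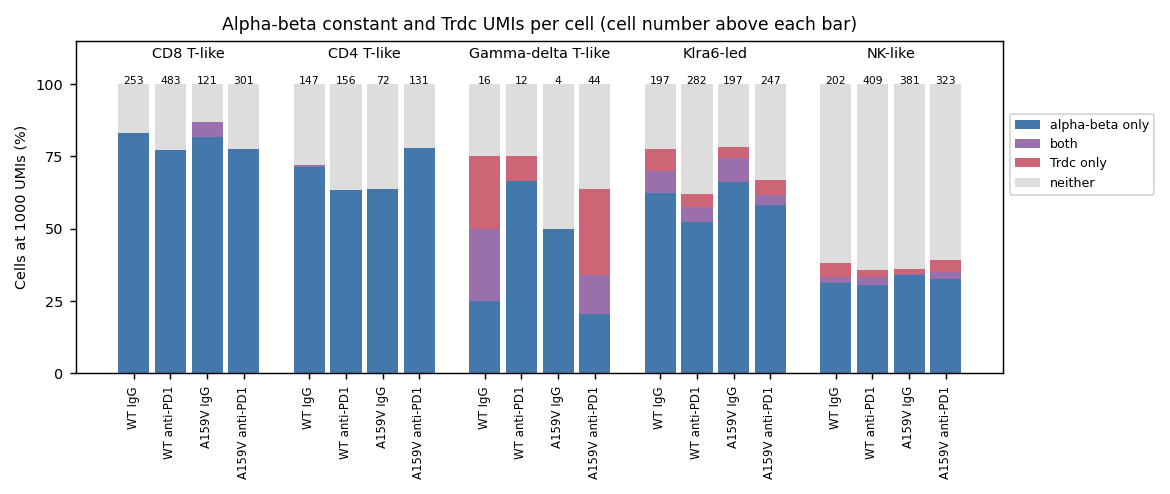
Percent of cells, thinned to 1000 UMIs, with alpha-beta constant UMIs only, Trdc only, both or neither, in each class and library, with the number of cells above each bar. Trdc only is visible in gamma-delta T-like, Klra6-led and NK-like cells, and CD8 T-like cells with both at this depth come from A159V IgG alone, at 4.96% of 121 cells.

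What else the Trdc-only cells held depended on their class. Over all T or NK cells at 1000 UMIs, 112 had Trdc and no alpha-beta UMI, of which 48 were Klra6-led, 41 NK-like and 18 gamma-delta T-like. A CD3 gene was seen in 15 of the 18 gamma-delta T-like cells, 37 of the 48 Klra6-led cells and 7 of the 41 NK-like cells. A gamma constant was seen in 12 of 18, 16 of 48 and 1 of 41, while Ncr1 or Klrb1c, which encode NK receptors, was seen in 0 of 18, 6 of 48 and 23 of 41.

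CD8 T-like cells of A159V IgG differed from the other libraries in delta and gamma constants. Trdc was at 37.4 CPM there (20.4 to 62.7, 14 UMIs in 12 cells) against 1.60 (2 UMIs) and 0.536 (1 UMI) in the WT libraries and 0 after anti-PD1 in A159V tumors. Tcrg-C1 was at 64.1 CPM (41.1 to 95.4) against 1.60, 0.536 and 1.72, and Tcrg-C2 at 120 CPM (87.7 to 161) against 20.03, 11.2 and 15.4. Trdc was at least 14.5-fold higher than in A159V anti-PD1, taking 3 counts in that library as its floor. The UMIs were spread over cells, with at most 2 Trdc, 3 Tcrg-C1 and 3 Tcrg-C2 UMIs in 1 cell. This was not particular to the CD8 class. In cells of T-like clusters without a Cd8 or Cd4 UMI, A159V IgG was also the highest library, at lower levels. Trdc was at 1.67, 3.28, 11.6 and 0 CPM there, Tcrg-C1 at 0, 0, 26.2 and 1.85, and Tcrg-C2 at 1.67, 0, 17.4 and 3.70.

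A UMI of Trdc, Tcrg-C1 or Tcrg-C2 was found in 44 of 130 CD8 T-like cells of A159V IgG (33.8%, 25.8 to 42.7), against 19 of 258 (7.36%), 19 of 499 (3.81%) and 12 of 313 (3.83%) in the other libraries. At 1000 UMIs the shares were 17.4% (11.1 to 25.3) against 3.16%, 1.24% and 0.664%. The median depth of these cells was 2435.5 UMIs in A159V IgG and 3974.5, 3271 and 2873 in the others. The size depended on how cells were chosen. For Trdc alone at 1000 UMIs, the share in A159V IgG was 4.96% (1.84 to 10.48), and with a minimum of 1000 genes per cell and new clusters it was 1.19% (0.144 to 4.23), while no setting gave over 0.880% in another library. Every CD8 T-like cell with a Trdc, Tcrg-C1 or Tcrg-C2 UMI also had a Trac, Trbc1 or Trbc2 UMI. So did most of those without one, with 230 of 239, 451 of 480, 81 of 86 and 274 of 301 in the 4 libraries. In A159V IgG, Fcer1g, the Fc receptor gamma chain that NK cells use beside zeta, was seen in 29.5% (16.8 to 45.2) of the 44 cells and 14.0% (7.42 to 23.1) of the 86 others. The same split gave 42.1% (20.3 to 66.5) and 13.4% (9.34 to 18.4) in WT IgG, 2 of 19 and 31 of 480 cells in WT anti-PD1, and 41.7% (15.2 to 72.3) and 11.0% (7.67 to 15.1) after anti-PD1 in A159V tumors. These Fcer1g shares are at full depth, and cells with a delta or gamma UMI were deeper. Their median was 6652, 4257, 2801.5 and 5685.5 UMIs in the 4 libraries, against 3800, 3241.5, 2213 and 2778 without one. The part of depth in the Fcer1g shares was not tested. Trav16n gave 8 of 23 alpha-beta variable UMIs in the 44 cells and 0 of 22 in the others, whereas in the WT libraries its 8 and 10 UMIs all lay in cells without a delta or gamma constant, which held 106 and 95 such UMIs, against 7 and 3 in the cells with one. The split and Trav16n were chosen after the values were seen, and the part of NK-like or gamma-delta RNA in this result was not tested.

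**Figure D4:**
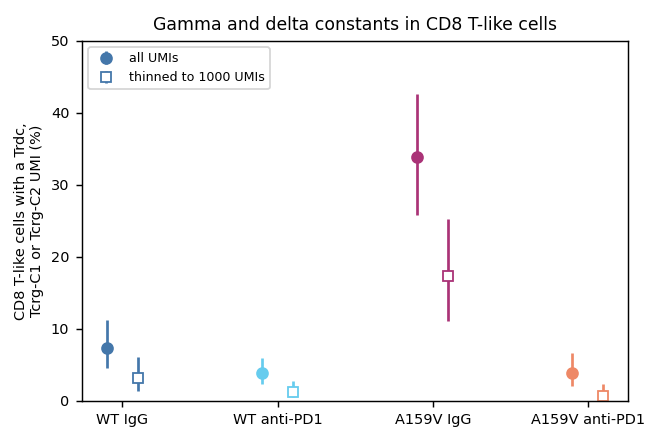
Percent of CD8 T-like cells with a UMI of Trdc, Tcrg-C1 or Tcrg-C2 in each library, at full depth (filled circles) and thinned to 1000 UMIs (open squares), with 95% binomial intervals. A159V IgG is at 33.8% and 17.4%, and the other 3 libraries are at 3.81% to 7.36% and 0.664% to 3.16%.

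To see what the tumor genotype went with, A159V IgG was set against WT IgG. In CD8 T-like cells, 2 of 9 members of at least 50 CPM in 1 library passed 2-fold, where 2.55% of 3889 genes did. These were Tcrg-C1 (log2 ratio, 4.64; 3.29 to 6.0) and Tcrg-C2 (2.53; 1.84 to 3.21), both higher. Cd3g was 1.39-fold higher (log2 ratio, 0.48; 0.36 to 0.60), and Cd3d, Cd3e, Trac and Trbc2 had log2 ratios from −0.16 to 0.11 with intervals that included 0. Trbc1 was at −0.25 (−0.52 to 0.01) and Cd247 lower at −0.37 (−0.71 to −0.03). In CD4 T-like cells 0 of 7 members passed 2-fold, beside 8.35% of all genes, and Trac had a log2 ratio of −0.45 (−0.76 to −0.14). In Klra6-led cells 1 of 9 passed, beside 2.15%, which was Tcrg-C2 (−1.22; −1.93 to −0.52), the opposite sign of its ratio in CD8 T-like cells, and Cd3g was again higher (0.54; 0.35 to 0.73). In NK-like cells 1 of 5 passed, beside 1.93%, which was Trdc (24.0 against 56.0 CPM; −1.19, −1.75 to −0.63). There Cd3g was lower (−0.71; −1.18 to −0.23), unlike in CD8 T-like and Klra6-led cells, as was Cd247 (−0.51; −0.87 to −0.16). Trdc in NK-like and Tcrg-C2 in Klra6-led cells (45.7 against 108 CPM) were at 50 CPM only in WT IgG.

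For anti-PD1 in WT tumors, the library that stood apart enters on one side, and the median log2 ratio of all genes was 0.28 in CD8 T-like, 0.22 in CD4 T-like, 0.32 in Klra6-led and 0.39 in NK-like cells. Cd3g was past 2-fold in every class, and it was lower, but the classes all come from the same pair of libraries. In CD8 T-like, CD4 T-like and Klra6-led cells, members passed 2-fold no more often than all genes did. In CD8 T-like cells 1 of 7 members passed (Cd3g; −1.14, −1.24 to −1.04), where 20.2% of all genes did. In CD4 T-like cells 1 of 7 passed (Cd3g; −1.22, −1.48 to −0.97) beside 18.5%, and in Klra6-led cells 1 of 9 (Cd3g; −1.24, −1.45 to −1.04) beside 15.8%. In NK-like cells 2 of 5 passed beside 22.8%, with Cd3g lower (−2.10; −2.73 to −1.47) and Cd247 higher (1.09; 0.79 to 1.39). Cd3g in these cells reached 50 CPM only in WT IgG (65.0 against 14.4 CPM). Cd247 was also higher in CD8 T-like (0.62) and CD4 T-like cells (0.65), and Trac in CD8 T-like cells was at −0.04 (−0.17 to 0.09).

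The opposite signs of Cd247 and Cd3g lay in a comparison where ratios moved with gene span. In CD8 T-like cells the median log2 ratio of WT anti-PD1 over WT IgG was −0.58 over 835 genes that span under 10 kb and 0.56 over 1652 genes of 50 kb or more, and in NK-like cells it was −0.54 and 0.66. Over genes of 10 to 50 kb the median was 0.18 in CD8 T-like and 0.28 in NK-like cells. Cd3g (10.9 kb) and Cd3e (10.9 kb) lie close to the lower edge of this group. Cd247 spans 88.6 kb, and the part of span in the members' ratios was not tested. Cd3e had a log2 ratio of −0.18 (−0.32 to −0.04) in CD8 T-like and −0.05 (−0.33 to 0.23) in CD4 T-like cells. The 3 alpha-beta constants summed had log2 ratios of −0.39 in CD8 and −0.29 in CD4 T-like cells, and the 3 CD3 genes −0.75 and −0.70.

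For anti-PD1 in A159V tumors, which shares the A159V IgG library with the comparison of genotypes, 2 of 9 members passed 2-fold in CD8 T-like cells beside 3.02% of all genes. These were Tcrg-C1 (−4.58; −5.97 to −3.20) and Tcrg-C2 (−2.88; −3.63 to −2.13), both lower in A159V anti-PD1. They are the genes already called between genotypes. Again they reached 50 CPM only in A159V IgG (64.1 and 120 CPM, against 1.72 and 15.4). Cd3g was lower (−0.72; −0.84 to −0.59) and Cd247 higher (0.60; 0.26 to 0.94), short of 2-fold. In CD4 T-like cells 0 of 7 passed beside 10.7%, and in Klra6-led cells 0 of 9 beside 2.75%, where Trdc was at −0.82 (−1.25 to −0.39). In NK-like cells 0 of 3 passed beside 1.34%, with Cd247 at 0.90 (0.60 to 1.21) and Trbc1 at 0.20 (0.01 to 0.39). Genes under 10 kb had a median of −0.14 and genes of 50 kb or more of 0.19 in CD8 T-like cells, a smaller difference than in WT tumors. In NK-like cells, where Cd247 (88.6 kb) was at 0.90, these medians were −0.17 and 0.34. The comparisons share IgG libraries, so they are not independent of each other.

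**Figure D5:**
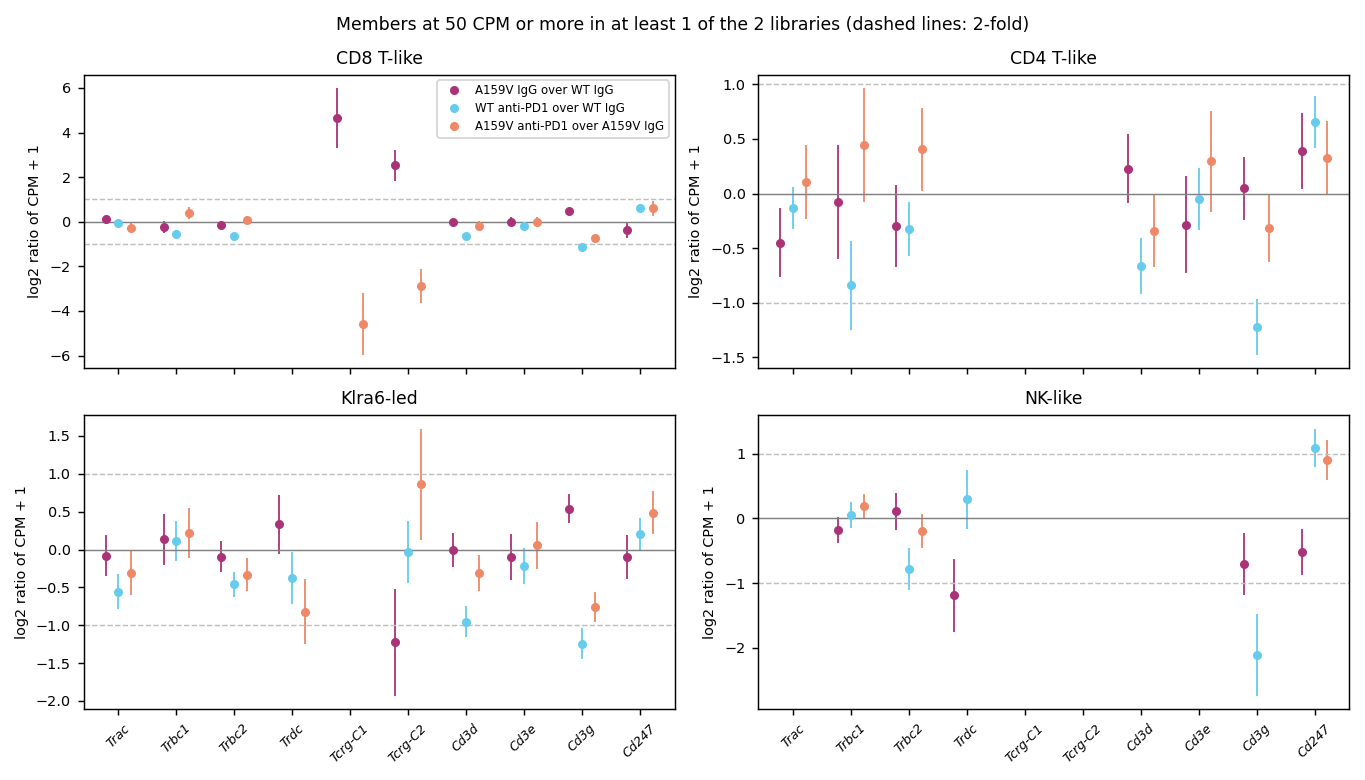
Log2 ratios of CPM + 1 for members at 50 CPM or more in 1 of the 2 libraries, for 3 comparisons in 4 cell classes, with 95% delta-method intervals and dashed lines at 2-fold (the vertical scales differ). Tcrg-C1 and Tcrg-C2 in CD8 T-like cells rise to 4.64 and 2.53 in A159V IgG over WT IgG, and Cd3g falls below the lower dashed line in all 4 classes of WT anti-PD1 over WT IgG.

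The genes that relay the receptor signal were followed as a list of 35, which includes the kinases Lck, Fyn and Zap70, adaptors, phosphatases and coreceptors. Some of its genes (Themis, Cd28, Cd6, Lat, Fcer1g, Txk and the coreceptors) also served as class markers. In CD8 T-like cells, 31 were at 50 CPM, and between A159V IgG and WT IgG 1 was past 2-fold higher and 0 lower (all genes, 0.951% higher and 1.59% lower), with a median log2 ratio of −0.08 against 0.01 for all genes. That gene was Fcer1g, at 286 against 101 CPM (1.49; 1.12 to 1.86), and Vav1, a Rac exchange factor, was at 0.64 (0.11 to 1.18). For WT anti-PD1 over WT IgG in these cells 2 were higher and 2 lower (all genes, 11.0% and 9.26%; median, 0.41 against 0.28), namely Themis (1.35) and Cd28 (1.16), a T cell development regulator and a costimulatory receptor, and Fcer1g (−2.29) and Ptpn6 (−1.38), the SHP-1 phosphatase. For A159V anti-PD1 over A159V IgG 0 were higher and 1 lower (Fcer1g; −1.36) beside 2.24% and 0.772% of all genes, with Ubash3b, a phosphatase that restrains receptor signaling, at 0.77 (0.47 to 1.06).

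In CD4 T-like cells the list passed 2-fold with 0, 1 and 1 of its genes in the 3 comparisons, all higher: Cd28 for anti-PD1 in WT tumors (1.0; 0.80 to 1.21) and Ubash3b for anti-PD1 in A159V tumors (1.03; 0.53 to 1.53). Of all genes, 4.91%, 8.69% and 5.72% were past 2-fold higher and 3.44%, 9.83% and 4.97% lower in these comparisons. In Klra6-led cells 1 was higher between genotypes (Tyrobp, 79.3 against 28.9 CPM) beside 1.15% of all genes, and for anti-PD1 in WT tumors 3 were higher and 2 lower, among them Cd8b1 (−2.21; 29.4 against 139 CPM), beside 8.38% and 7.44%. The Klra6-led cells of WT anti-PD1 came mostly from cluster 8 and those of WT IgG from cluster 0. In NK-like cells 24 genes were at the minimum. Between genotypes Cd2, an adhesion receptor, was lower (−1.21; −1.64 to −0.77) beside 0.963% of all genes, and for anti-PD1 in WT tumors Cd28 (1.58) and Vav1 (1.06) were higher and Fcer1g (−1.06) lower, beside 15.3% and 7.43%. For anti-PD1 in A159V tumors 0 of the 24 passed in either direction, beside 0.765% of all genes higher and 0.574% lower.

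Genes with the pattern most like the members' were sought over 42 profiles, each a class in a library of at least 50 cells, by Pearson's r of log2(CPM + 10) over 8568 genes, as a description in which profiles of 1 library share its depth. Gamma-delta T-like cells, in which Trdc was highest, had too few cells in every library to be among the profiles. Bcl11b, Themis, Lat, Cd6, Cd5 and Klra7 were themselves markers that chose the classes, and Klra6 set the Klra6-led class. Their places in these lists partly follow from that choice. Closest to Cd3e were Themis (r = 0.98), Bcl11b (0.98), Lat (0.97), Cd6 (0.96) and Klk8 (0.95), and closest to Trac were Bcl11b (0.99), Lat (0.98), Themis (0.98), Cd6 (0.98) and Cd5 (0.96). Trdc had another set over these profiles, which lack gamma-delta T-like cells. It held Klra1 (0.93), Samd3 (0.90), Clnk (0.89), Klra7 (0.89) and Klra6 (0.89), of which Klra1, Klra6 and Klra7 encode Ly49 receptors. Among the genes closest to Cd247 were Tox (0.99), Lck (0.98), Camk4 (0.98) and Cd27 (0.98).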

How the data were processed

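Single-cell UMI counts (whole numbers per gene and cell) were used as the authors deposited them, with Cell Ranger named as version 7.2.0 in the file headers and as 5.0.1 in the submitters' processing notes, on mm10 (GRCm38), with introns counted per the study's methods. The study applied decontX and DoubletFinder, and neither was applied here, so no free RNA was subtracted. Members and gene lists were chosen with earlier results of these data known.

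Cells with more than 500 genes were kept, with no mitochondrial limit. Doublets were removed at 0.8% per 1000 cells by a Scrublet-type score with 2 simulated doublets per cell. Clustering used 2000 variable genes without 272 receptor and member genes, 20 principal components, 20 neighbors and Leiden at resolution 1 (21 clusters, then 18 among T and NK cells), named from 13 marker lists. NK and innate lymphoid names were withdrawn where over 10% of a cluster's cells had a Cd8 or Cd4 UMI, a rule chosen after seeing the data. Levels are summed UMIs scaled to CPM. Shares followed thinning to 1000 UMIs. Log2 ratios used a pseudocount of 1 CPM, genes of at least 50 CPM in 1 library and classes of at least 50 cells. A count of 0 was given 3 counts as its limit.

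Named genes were all 10 members, the 2 highest and 2 lowest ratios of the signaling list per class and comparison, of which the text gives a selection, and the 5 genes most like Cd3e, Trac, Trdc and Cd247, of which 1 is not reported here. Scripts were tested on simulated data. Alternatives changed the gene minimum, mitochondrial limit, doublets, resolution, clustering genes, gates, scaling, pseudocount, thinning and CPM minimum. Annotation was GENCODE M21, in which 32158 of 32285 genes (99.6%) had a span. Python 3.11.15, numpy 2.4.6, scipy 1.17.1, scikit-learn 1.9.0, leidenalg 0.10.2 and pandas 2.3.3 were used.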

Additional observations from a re-analysis of the deposited data

Results flagged for a closer look

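Both Cd3d and Cd3e moved in opposite directions with anti-PD1 in NK-like cells of the 2 tumor genotypes. Cd3d had a log2 ratio of anti-PD1 over IgG of −1.41 in WT tumors and 1.08 in A159V tumors, from 26 and 16 UMIs in the WT libraries and 17 and 31 in the A159V libraries. Cd3e had log2 ratios of −2.36 and 1.62, from 13 and 3 UMIs and from 6 and 18 UMIs. These levels were at most 26.0 CPM, below the 50 CPM used for comparisons in the report. The difference between the genotypes was not tested.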

How the results depend on the processing

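No paired analysis was possible because each group was 1 library, and for the same reason no replicate could be left out. Of the 12 summed log2 ratios none whose interval excluded 0 changed its sign under the alternatives run, and the CD3 genes in CD4 T-like cells for A159V IgG over WT IgG kept it under 7 of 9 and the alpha-beta constants in CD8 T-like cells for A159V anti-PD1 over A159V IgG under 9 of 11. The summed CD3 genes in CD8 T-like cells moved under several alternatives. For A159V IgG over WT IgG (0.27) they gave 0.12 with at least 1000 genes per cell, 0.12 with doublets kept, 0.13 with receptor genes allowed in clustering and 0.15 with CD8 cells taken by whole clusters. For WT anti-PD1 over WT IgG (−0.75) they gave −0.54 with at least 1000 genes, −0.61 with doublets kept, −0.82 and −0.65 at resolutions 0.5 and 2, −0.65 with receptor genes allowed and −0.92 with median-of-ratios scaling. For A159V anti-PD1 over A159V IgG (−0.44) they gave −0.17 with at least 1000 genes, −0.34 with at most 10% mitochondrial UMIs, −0.21 with doublets kept, −0.29 at resolution 2 and −0.22 with receptor genes allowed. The summed alpha-beta constants of CD8 T-like cells for WT anti-PD1 over WT IgG (−0.39) gave −0.26 with at least 1000 genes, −0.52 at resolution 0.5 and −0.56 with median-of-ratios scaling, and those of CD4 T-like cells (−0.29) gave −0.44 by whole clusters. Those of CD4 T-like cells for A159V anti-PD1 over A159V IgG (0.28) gave 0.07 by whole clusters and 0.07 with doublets kept, with intervals that included 0. With a minimum of 10 CPM, 6 in place of 3 members passed 2-fold over CD8, CD4 and NK-like cells for A159V IgG over WT IgG, and 5 in place of 2 for A159V anti-PD1 over A159V IgG. The number of members at that minimum and the share of all genes past 2-fold are not given. These counts therefore cannot be set beside all genes. The causes were not tested. NK-like cells by score alone, NK-like cells without T cell UMIs, and medians by gene span were chosen after seeing the data.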

Other observations

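Ptcra, which encodes the surrogate alpha chain of the pre-T cell receptor, was found outside the T and NK cells. In the unnamed clusters that best matched tumor markers it was at 10.8, 25.2, 61.1 and 41.2 CPM in the 4 libraries, from 701, 35, 5441 and 3753 UMIs, while CD8 T-like cells held 8 Ptcra UMIs (1.72 CPM) and NK-like cells 13. Rag1 and Rag2, the recombinase genes, gave 0 UMIs in every T and NK class, and together 1 UMI in the tumor-matching clusters.

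Cd247 was also seen in endothelial-like cells of WT anti-PD1, at 26.4 CPM (19.6 to 34.8) and in 33 of 177 cells, where Trac was at 3.70 CPM and in 5 cells. The other libraries held too few endothelial-like cells to compare.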
